A study of Homo sapiens with 4 samples.

Results

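Cholesterol synthesis, uptake and efflux genes were followed in RNA from the human line HT8, for which the labels give colon cancer as the tissue. The 32 genes were listed by their role in the pathway, and all 32 were found among the 58735 gene IDs of the deposited tables by their GENCODE 29 symbols. They fall into 6 steps: the mevalonate arm (7 genes), squalene to lanosterol (3), post-lanosterol (8), SREBP control (4), uptake, transport and storage (6), and efflux with the LXR receptors (4). The study set 2 libraries labelled PPDPF knockdown, with the source named HT8-cas1, against 2 libraries labelled control, with the source HT8. The sources used here do not tell how the knockdown was made, what cas1 stands for, or whether either source is 1 clone. Both groups carry the cell line label HT8, and share total RNA taken with Trizol and a commercial sequencing provider, and no treatment or time is named for either. No label tells whether the 2 libraries of a group are separate cultures. The p-values therefore measure only the spread between these libraries, which may be technical.

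Cells make cholesterol from acetyl-CoA by way of mevalonate, squalene and lanosterol, and the same early steps feed the isoprenoids used for ubiquinone, dolichol and protein prenylation. The transcription factor SREBP-2 is held in the endoplasmic reticulum by SCAP and the INSIG proteins when sterols are plentiful, and is released to the nucleus to switch on synthesis and uptake genes when sterols run low. The liver X receptors, LXR, work the other way, since oxysterols activate them to raise the ABC transporters that export cholesterol. Intestinal cells are known both to make cholesterol and to take it up from the gut.

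The gene named by the knockdown label was not reduced. PPDPF, on chromosome 20 from 63520724 to 63522206 (GRCh38), had 281 and 283 FPKM in the libraries labelled knockdown, against 237 and 266 FPKM in control. Both libraries labelled knockdown lay above both controls, by a log2 fold change of 0.16 (SE 0.06, limma adjusted p = 0.0940, between 0.00424 and 0.281 over the alternatives). Without control replicate 2 it was called higher, at 0.25 (limma adjusted p = 0.0233). They are therefore called the libraries labelled knockdown throughout, and genes are said to rise or fall in them relative to control. FPKM are reads scaled to exon length and library size. A fold change compares log2(FPKM + 1) between groups, so that low genes appear to change less than they did. A gene said to fall to a fraction of control, or to rise by a fold, is likewise given on the FPKM + 1 scale. For low genes that fraction is nearer to no change than the printed FPKM are. Whole reads recovered from the FPKM came to between 17069628 and 19479906 in genes per library. Libraries of a group differed by more than sampling noise, since the chi-square of their reads averaged 2.46 over genes in the libraries labelled knockdown and 2.63 in control. All 11 markers of colon epithelium were expressed, led by KRT8 at 1121 and 1081 FPKM in the libraries labelled knockdown, against 917 and 977 FPKM in control. Markers of cells with their own cholesterol use were at or near 0, since ALB, CYP11A1 and HSD3B2 were listed at 0 in every library and the other 3 of that list reached at most 0.123 FPKM. Those of blood cells summed to 1.13 and 1.14 FPKM in the libraries labelled knockdown, against 1.64 and 1.87 FPKM in control, with PTPRC at 0. Most of this was CD14, with 0.860 and 0.907 FPKM in the libraries labelled knockdown, against 1.57 and 1.86 FPKM in control, which fell to 0.695 (limma adjusted p = 0.0335), a call lost without any 1 of the 4 libraries (up to 0.135 over the alternatives). CSF1R lay the other way, with 0.169 and 0.172 FPKM in the libraries labelled knockdown, against 0.0442 and 0.00988 FPKM in control, under the filter. Those of fibroblasts and endothelium summed to between 0.215 and 0.359 FPKM, with COL1A2, DCN and CDH5 at 0.

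Most of the cholesterol synthesis enzymes were lower in the libraries labelled knockdown, while the 4 efflux and LXR genes were not. Of the 32 genes, 30 had a mean of at least 1 FPKM and were tested, and 20 fell while 1 rose (limma, Benjamini-Hochberg adjusted p under 0.05 over all 12777 genes tested). Among all genes tested, 13.0% fell and 16.8% rose, 29.9% in either direction. The median log2 fold change of the 30 was -0.42, beside 0.00111 over all genes tested. Both libraries labelled knockdown lay under both controls for 21 of the 32 genes and above both for 7, where all genes tested gave 33.8% and 35.9%. The difference between groups was larger than the gap between the libraries of either group in 23 of the 30. That share was not computed over all genes tested, so it cannot be read as particular to these genes. In bulk RNA, fewer cells of a type and less RNA per cell cannot be told apart.

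By step, 15 of the 18 synthesis enzymes fell. In the mevalonate arm 6 of 7 genes fell, at a median log2 fold change of -0.56. Between squalene and lanosterol 3 of 3 fell, at a median of -0.47, and after lanosterol 6 of 8 fell, at -0.39. Under SREBP control 2 of 4 fell, and in uptake, transport and storage 3 of 6 fell, with medians of -0.12 and -0.11. The 2 tested genes of the efflux step were the LXR receptors, of which 1 rose and none fell, at a median of 0.21. Its transporters ABCA1 and ABCG1 lay under the filter. Added up on the FPKM scale, which is per length, the 18 synthesis enzymes came to 298 and 305 in the libraries labelled knockdown, against 427 and 437 in control, or 69.7% of the control mean. The 4 efflux and LXR genes summed to 29.6 and 27.3 FPKM in the libraries labelled knockdown, against 22.5 and 24.3 FPKM in control. The receptor gene NR1H2 alone gave 20.2 and 18.4 FPKM of this, against 16.1 and 17.1 FPKM in control.

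**Figure D1:**
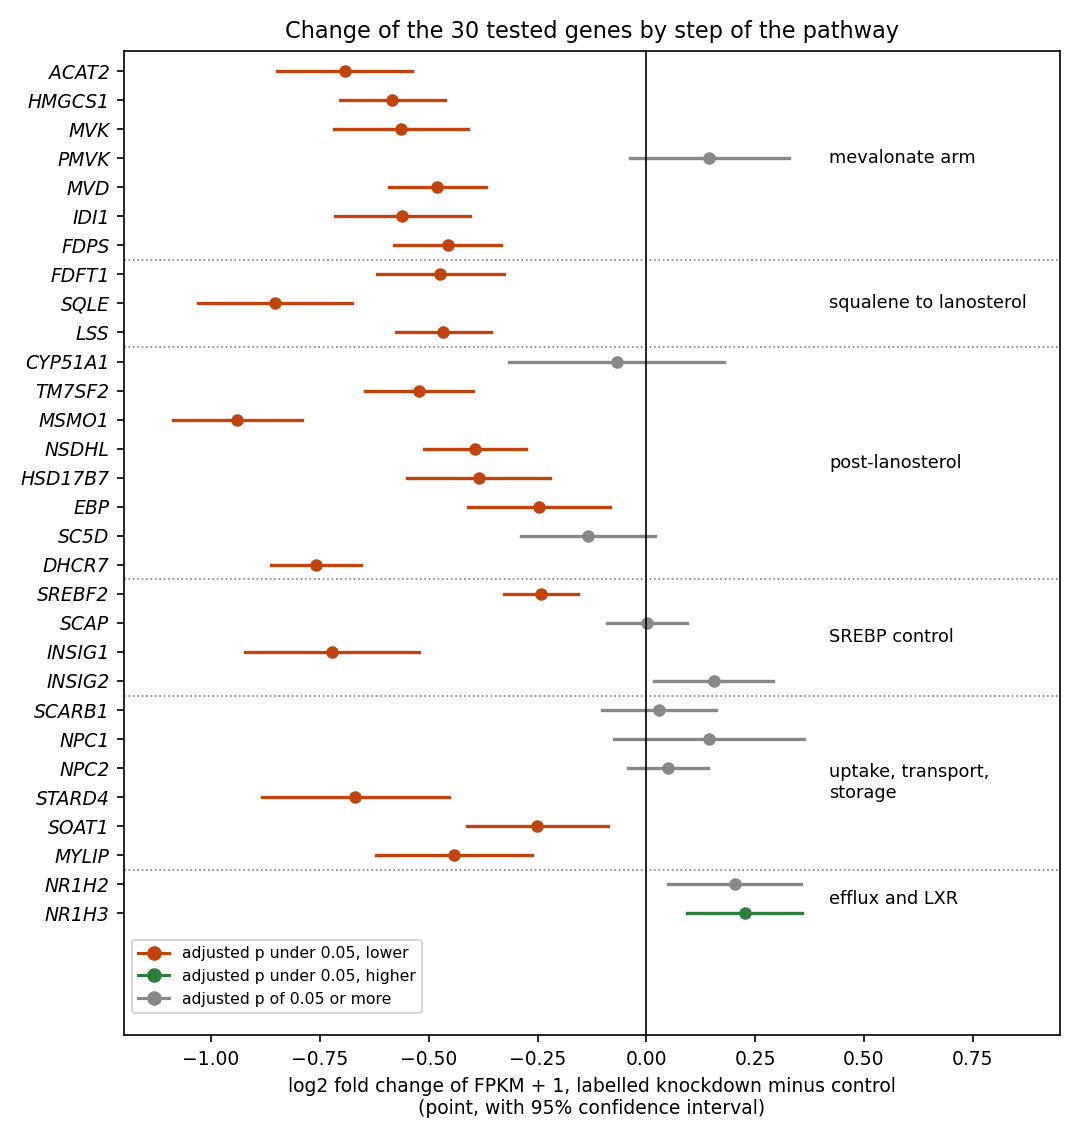
The log2 fold change of FPKM + 1 (x axis, libraries labelled knockdown minus control) with its 95% confidence interval for the 30 tested genes, ordered from the top by step of the pathway. The 20 points in orange, called lower, run from -0.94 for MSMO1 to -0.24 for SREBF2, and the single call to the right is NR1H3 at 0.23.

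The genes that fell and were matched to a promoter all held a CCAAT box. The genes were listed by their role in the pathway, with earlier results of these data known. The shares below are therefore a description only. SREBP-2 is known to act at sterol regulatory elements together with NF-Y, which binds CCAAT boxes, and Sp1, which binds GC boxes. RefSeq promoters on GRCh38.p14, from 250 bases before to 50 after each annotated start, were matched for 27 of the 32 genes, and each was searched on both strands for CCAAT, for GGGCGG, for the sterol element core TCACNCCAC and for the LXR direct repeat named DR4. A gene counted as holding a motif if any of its annotated starts did. CCAAT was found for 17 of the 17 matched genes that fell and for 3 of the other 10, of which ABCA1 was under the filter. SQLE, FDFT1 and ACAT2 fell too but had no promoter to search. It was found for 43.2% of the 8889 tested genes with a promoter in the table, for 47.6% of the 1159 of them that fell and for 41.5% of the 1609 that rose. The GC box was found for 16 of the 17 and for 10 of the other 10, beside 78.4% of tested genes, so it did not set the sets apart. The sterol element core was found for 1 of the 27, SREBF2, beside 1.44% of tested genes, and DR4 for none of the 27, beside 0.0112%. These are matches of letters, made with the calls known and without a test, and say nothing of binding. The stretches below run from 190 bases to 1 base before the start. They show 3 of the enzymes, the sterol carrier STARD4, and the regulators INSIG1 and SREBF2, which all fell. INSIG2 and SCAP, which did not fall, come last. SC5D, NPC2 and NR1H3, which hold CCAAT but were not called lower, are not printed. Where a gene had several annotated starts, the start with the most CCAAT boxes is shown, or the first listed on a tie. HMGCS1 and DHCR7 have 2 starts each, and the start not shown held no CCAAT box. Capitals mark CCAAT on either strand (ATTGG on the other) and, in SREBF2, the sterol element core.
MSMO1 (chr4:165327479-165327668, plus strand): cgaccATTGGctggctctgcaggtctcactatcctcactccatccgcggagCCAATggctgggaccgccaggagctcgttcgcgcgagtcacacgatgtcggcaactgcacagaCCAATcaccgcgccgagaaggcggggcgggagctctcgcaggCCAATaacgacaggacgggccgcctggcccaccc
DHCR7 (chr11:71448394-71448583, minus strand): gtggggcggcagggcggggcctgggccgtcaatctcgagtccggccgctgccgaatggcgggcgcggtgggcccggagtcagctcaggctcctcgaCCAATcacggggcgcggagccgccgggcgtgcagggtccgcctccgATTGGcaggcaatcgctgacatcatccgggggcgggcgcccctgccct
HMGCS1 (chr5:43313413-43313602, minus strand): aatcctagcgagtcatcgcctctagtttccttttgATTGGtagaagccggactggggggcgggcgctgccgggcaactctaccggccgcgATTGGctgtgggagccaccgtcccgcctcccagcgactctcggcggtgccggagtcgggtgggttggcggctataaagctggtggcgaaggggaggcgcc
STARD4 (chr5:111512536-111512725, minus strand): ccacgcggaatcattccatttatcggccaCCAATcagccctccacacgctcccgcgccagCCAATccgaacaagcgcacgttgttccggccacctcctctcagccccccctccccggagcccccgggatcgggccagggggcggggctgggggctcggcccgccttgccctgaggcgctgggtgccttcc
INSIG1 (chr7:155297688-155297877, plus strand): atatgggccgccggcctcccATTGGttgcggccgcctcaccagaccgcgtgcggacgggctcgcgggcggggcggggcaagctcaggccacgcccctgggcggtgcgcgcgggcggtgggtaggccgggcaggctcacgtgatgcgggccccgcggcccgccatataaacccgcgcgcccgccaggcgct
SREBF2 (chr22:41832915-41833104, plus strand): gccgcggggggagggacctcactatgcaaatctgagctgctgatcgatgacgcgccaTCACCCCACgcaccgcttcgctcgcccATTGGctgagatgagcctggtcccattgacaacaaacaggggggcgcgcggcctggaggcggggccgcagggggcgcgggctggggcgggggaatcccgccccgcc
INSIG2 (chr2:118088281-118088470, plus strand): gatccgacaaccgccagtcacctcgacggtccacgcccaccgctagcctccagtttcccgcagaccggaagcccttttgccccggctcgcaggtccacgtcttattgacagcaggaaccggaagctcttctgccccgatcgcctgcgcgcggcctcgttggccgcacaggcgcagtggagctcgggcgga
SCAP (chr3:47475942-47476131, minus strand): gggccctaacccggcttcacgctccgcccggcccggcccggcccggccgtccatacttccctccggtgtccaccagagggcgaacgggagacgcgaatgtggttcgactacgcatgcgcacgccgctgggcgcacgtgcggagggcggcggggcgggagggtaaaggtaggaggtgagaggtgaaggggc

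**Figure D2:**
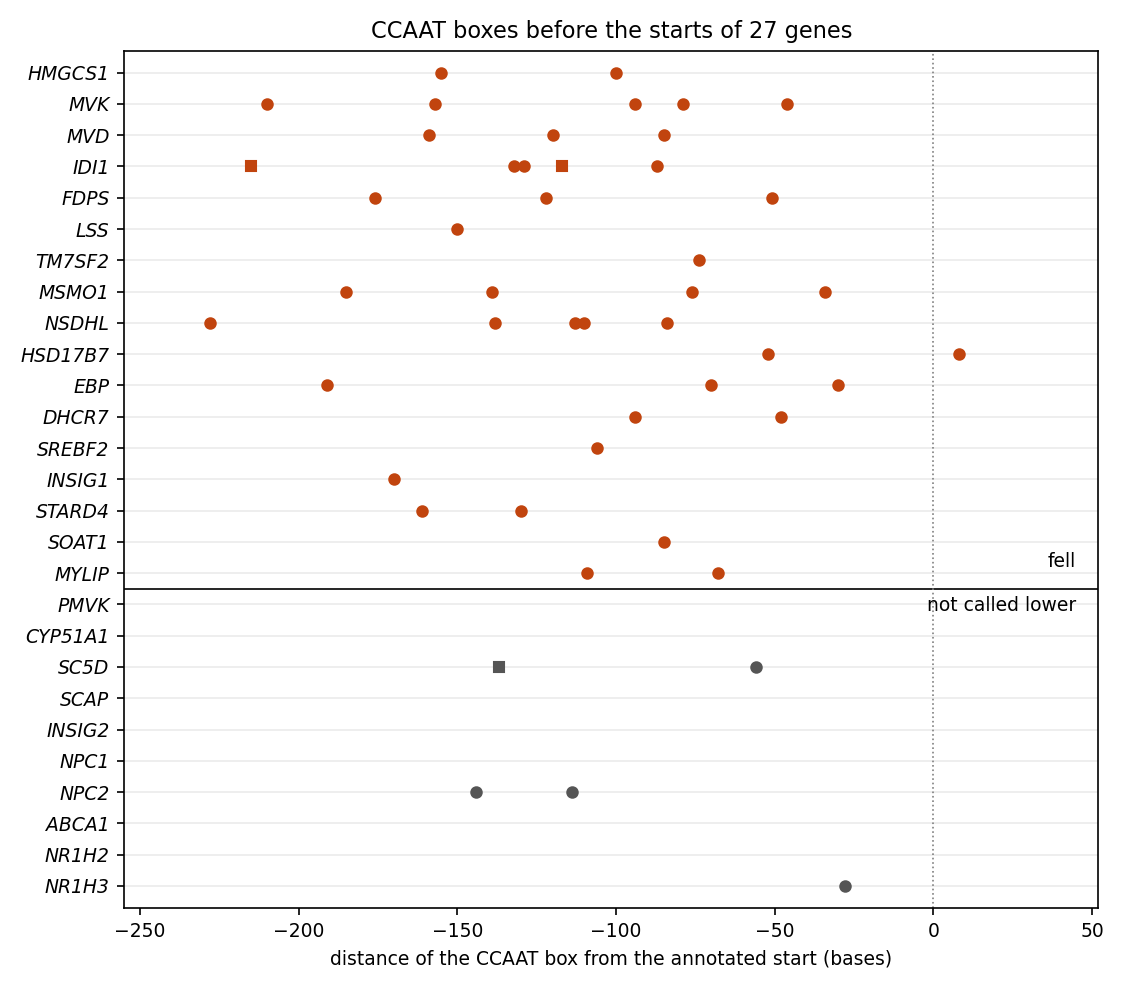
Distance in bases of each CCAAT box from the annotated start (x axis, negative before the start) for the 27 genes with a promoter in the table. Those that fell are above the line and the others below. Squares mark a second annotated start that holds a box, and starts without a box are skipped. Each of the 17 of these genes that fell has a point, while 3 of the other 10 do: SC5D, NPC2 and NR1H3.

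The mevalonate arm begins with ACAT2, the thiolase that joins acetyl-CoA into acetoacetyl-CoA, which had 9.78 and 10.8 FPKM in the libraries labelled knockdown, against 16.8 and 17.7 FPKM in control. HMGCS1 (ENSG00000112972, GRCh38 chromosome 5, 43289395 to 43313512), which adds the third acetyl unit to give HMG-CoA, had 20.1 and 19.0 FPKM in the libraries labelled knockdown, against 29.1 and 30.6 FPKM in control. For both genes every library labelled knockdown lay well below every control. ACAT2 fell to 0.619 of control (limma adjusted p = 0.00246) and HMGCS1 to 0.667 (limma adjusted p = 0.00203). The HMGCS1 promoter printed above holds its pair of CCAAT boxes on the other strand. Other genes' exons cover 52.3% of the exon length of ACAT2. The sources used here do not tell whether counting used strand, and reads of ACAT2 and its overlapping genes may not be separable.

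The phosphorylating and decarboxylating enzymes of the arm split. MVK, mevalonate kinase, had 3.61 and 3.48 FPKM in the libraries labelled knockdown, against 5.84 and 5.59 FPKM in control. MVD, the decarboxylase that makes isopentenyl diphosphate, had 8.67 and 8.60 FPKM in the libraries labelled knockdown, against 12.6 and 12.2 FPKM in control. Both genes fell with no overlap of groups, to 0.677 and 0.717 of control (limma adjusted p = 0.00390 and 0.00267). PMVK, the kinase that acts between these enzymes, had 30.6 and 26.5 FPKM in the libraries labelled knockdown, against 25.4 and 26.0 FPKM in control. Its groups lay apart in the other direction, by a log2 fold change of 0.14 with a 95% interval of -0.04 to 0.33, and a limma adjusted p of 0.189 left it uncalled. The interval of PMVK lies above those of MVK and MVD, whose upper ends were -0.41 and -0.37, and the difference between these genes was not tested. Without knockdown replicate 2 PMVK was called higher at 0.24 (limma adjusted p = 0.0452, over all alternatives 0.0452 to 0.563).

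IDI1 and FDPS close the arm. IDI1, which isomerises isopentenyl diphosphate, had 17.7 and 19.9 FPKM in the libraries labelled knockdown, against 27.7 and 28.6 FPKM in control. FDPS, which condenses the isoprene units into farnesyl diphosphate, had 18.9 and 20.4 FPKM in the libraries labelled knockdown, against 27.1 and 27.6 FPKM in control. Neither gene's groups overlapped. IDI1 fell to 0.678 and FDPS to 0.729 of control (limma adjusted p = 0.00400 and 0.00376). Pseudogenes named after FDPS drew 4 and 0 reads in the libraries labelled knockdown, against 6 and 2 in control, beside 1213 and 1287 against 1772 and 2014 for FDPS itself.

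Between farnesyl diphosphate and lanosterol lie 3 enzymes, and all fell, SQLE by the most. FDFT1, squalene synthase, had 30.5 and 33.8 FPKM in the libraries labelled knockdown, against 44.0 and 45.9 FPKM in control. SQLE (ENSG00000104549, GRCh38 chromosome 8, 124998497 to 125022283), squalene epoxidase, had 13.2 and 14.9 FPKM in the libraries labelled knockdown, against 25.4 and 27.0 FPKM in control. LSS, lanosterol synthase, had 26.3 and 27.7 FPKM in the libraries labelled knockdown, against 37.0 and 38.4 FPKM in control. In all 3 the libraries labelled knockdown stood below both controls. SQLE fell to 0.553 of control (limma adjusted p = 0.00203), FDFT1 to 0.720 (limma adjusted p = 0.00526) and LSS to 0.724 (limma adjusted p = 0.00271). The 30 tested neighbours of SQLE had a median log2 fold change of 0.14, opposite in sign to SQLE.

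After lanosterol, MSMO1 and DHCR7 showed the largest falls of the step. MSMO1 (ENSG00000052802, GRCh38 chromosome 4, 165327623 to 165343160), the methyl oxidase that removes the C4 methyl groups, had 19.8 and 22.1 FPKM in the libraries labelled knockdown, against 41.5 and 40.7 FPKM in control. DHCR7 (ENSG00000172893, GRCh38 chromosome 11, 71428193 to 71452868), the reductase that turns dehydrocholesterol into cholesterol, had 24.4 and 24.6 FPKM in the libraries labelled knockdown, against 41.0 and 43.3 FPKM in control. In both genes the libraries labelled knockdown stood far below both controls. MSMO1 fell to 0.521 of control (limma adjusted p = 0.00132) and DHCR7 to 0.591 (limma adjusted p = 0.00107). The MSMO1 stretch printed above holds 4 CCAAT boxes and the DHCR7 stretch 2. The number of boxes was not tested against the size of the fall. MVK, NSDHL and EBP also have several boxes in their promoters and fell less.

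The partners of MSMO1 in removing the C4 methyl groups were also lower. NSDHL, the decarboxylating dehydrogenase, had 12.6 and 13.4 FPKM in the libraries labelled knockdown, against 17.3 and 17.4 FPKM in control, a fall to 0.761 (limma adjusted p = 0.00469). HSD17B7, the ketoreductase, had 3.46 and 3.36 FPKM in the libraries labelled knockdown, against 4.89 and 4.62 FPKM in control, a fall to 0.766 (limma adjusted p = 0.0127). Its pseudogenes held 53 and 39 reads in the libraries labelled knockdown, against 68 and 112 in control, beside 285 and 272 against 411 and 434 for the gene, so its level is uncertain. The call of HSD17B7 was lost without control replicate 1 (limma adjusted p = 0.0716) or knockdown replicate 2 (0.0565), and with no filter on low values (0.0543). TM7SF2, a sterol C14 reductase, had 17.7 and 18.3 FPKM in the libraries labelled knockdown, against 25.4 and 27.2 FPKM in control, and fell to 0.696 (limma adjusted p = 0.00280).

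The remaining enzymes of the step moved little or not at all by the test. EBP, the sterol isomerase, had 25.7 and 22.7 FPKM in the libraries labelled knockdown, against 29.2 and 28.6 FPKM in control. Its fall to 0.843 passed narrowly (limma adjusted p = 0.0423) and the call was lost without control replicate 1 (0.149), control replicate 2 (0.116) or knockdown replicate 2 (0.0977), and with no filter (0.140). Without knockdown replicate 2 its log2 fold change was -0.16, beside -0.25 with all libraries. SC5D, the desaturase that acts before DHCR7, had 11.0 and 12.3 FPKM in the libraries labelled knockdown, against 12.9 and 12.8 FPKM in control. It did not pass the test, with a log2 fold change of -0.13 and a 95% interval of -0.29 to 0.02 (limma adjusted p = 0.153). Within a library, DHCR7 stood at 2.21 and 2.01 times SC5D in the libraries labelled knockdown, against 3.17 and 3.39 times in control.

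CYP51A1, the demethylase that acts first on lanosterol, had 3.43 and 3.23 FPKM in the libraries labelled knockdown, against 3.89 and 3.21 FPKM in control. The groups overlapped, and the log2 fold change of -0.07 had a 95% interval of -0.32 to 0.18 (limma adjusted p = 0.628). With 212 and 196 reads in the libraries labelled knockdown, against 245 and 226 in control, it was among the least covered of the enzymes. Other genes' exons cover 83.2% of its exon length. The largest overlap is with AC000120.2 on the same strand, which was listed at 0 in every library, so the deposited value of CYP51A1 may rest on a small part of the gene. Its 30 tested neighbours on chromosome 7 had a median log2 fold change of 0.28, and 14 of them rose. The part of these in its value was not tested.

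**Figure D3:**
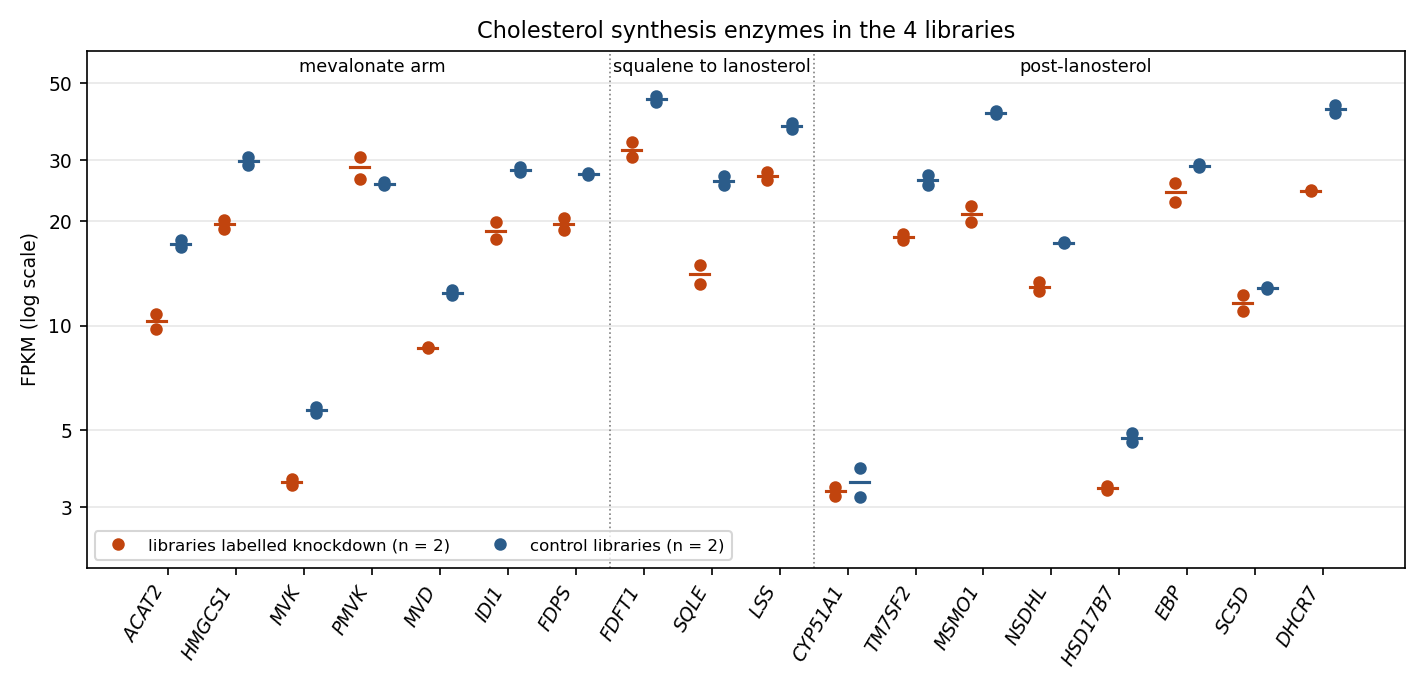
FPKM (y axis, log scale) of the 18 synthesis enzymes in pathway order, with 1 point per library and a bar at each group's mean, the libraries labelled knockdown left of control for each gene. Points of the groups are apart and lower in the libraries labelled knockdown for 16 enzymes, apart and higher for PMVK, and overlapping for CYP51A1.

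Among the regulators, INSIG1 and INSIG2 did not move together. INSIG1 (ENSG00000186480, GRCh38 chromosome 7, 155297776 to 155310235), which holds the SCAP complex in the endoplasmic reticulum when sterols are plentiful and is itself a known target of SREBP, had 17.0 and 18.5 FPKM in the libraries labelled knockdown, against 28.0 and 32.0 FPKM in control. INSIG2, its paralog, had 8.99 and 9.02 FPKM in the libraries labelled knockdown, against 8.29 and 7.69 FPKM in control. Both genes had groups that did not overlap, INSIG1 lower and INSIG2 slightly higher. INSIG1 fell to 0.606 of control (limma adjusted p = 0.00400). INSIG2 had a log2 fold change of 0.15 with a 95% interval of 0.02 to 0.29, and was not called (limma adjusted p = 0.0869). Within a library, INSIG1 stood at 1.89 and 2.06 times INSIG2 in the libraries labelled knockdown, against 3.37 and 4.16 times in control. With 2 libraries against 2, an exact two-sided permutation test of this ratio cannot give a p below 0.333. Of the stretches printed above, that of INSIG1 holds a CCAAT box and that of INSIG2 holds none. A link between such boxes and the calls was not tested, and SC5D, NPC2 and NR1H3 hold CCAAT but were not called lower. The tested neighbours of INSIG1 had a median log2 fold change of 0.12 and those of INSIG2 -0.10, each opposite in sign to the gene beside them.

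SREBF2 and SCAP, the genes for the factor and its escort, differed in their calls. SREBF2 (ENSG00000198911, GRCh38 chromosome 22, 41833079 to 41907308), which encodes SREBP-2, had 53.0 and 54.3 FPKM in the libraries labelled knockdown, against 62.9 and 64.5 FPKM in control. It fell to 0.846 of control (limma adjusted p = 0.00730), a small change with both groups tight, and was called in each of 12 alternatives. SCAP had 19.4 and 19.7 FPKM in the libraries labelled knockdown, against 19.5 and 19.5 FPKM in control. Its log2 fold change was 0.00 with a 95% interval of -0.09 to 0.09 (limma adjusted p = 0.976). Its direction turned under other scalings, down to -0.04, and its stretch above shows no CCAAT box.

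Of the uptake, transport and storage genes, STARD4, MYLIP and SOAT1 fell, while the receptor SCARB1 and the lysosomal NPC1 and NPC2 were not called. STARD4 (ENSG00000164211, GRCh38 chromosome 5, 111496033 to 111512590), a cytosolic sterol carrier, had 7.22 and 8.51 FPKM in the libraries labelled knockdown, against 12.6 and 13.5 FPKM in control. Both libraries labelled knockdown were below both controls, a fall to 0.629 (limma adjusted p = 0.00575). SCARB1, the HDL receptor, had 14.5 and 15.6 FPKM in the libraries labelled knockdown, against 14.9 and 14.6 FPKM in control. NPC1, which exports cholesterol from lysosomes, had 9.06 and 7.79 FPKM in the libraries labelled knockdown, against 7.16 and 7.88 FPKM in control. The groups of SCARB1 and NPC1 overlapped, with log2 fold changes of 0.03 (95% interval -0.10 to 0.16) and 0.14 (-0.07 to 0.36). NPC2, the soluble partner of NPC1, had 40.6 and 41.4 FPKM in the libraries labelled knockdown, against 38.9 and 40.4 FPKM in control, with a log2 fold change of 0.05 (-0.04 to 0.14). The limma adjusted p of these 3 genes was between 0.258 and 0.693.

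MYLIP and SOAT1 fell with less support. MYLIP, an LXR-induced ubiquitin ligase that marks lipoprotein receptors for breakdown, had 3.95 and 4.39 FPKM in the libraries labelled knockdown, against 5.85 and 6.21 FPKM in control. It fell to 0.736 of control (limma adjusted p = 0.0111), and lost its call without control replicate 2 (0.0600) and with no filter (0.0549). SOAT1, which esterifies cholesterol for storage, had 3.47 and 3.41 FPKM in the libraries labelled knockdown, against 4.38 and 4.18 FPKM in control. Its groups were apart and it fell to 0.841 of control (limma adjusted p = 0.0405), but dropping any 1 of the 4 libraries ended the call (limma adjusted p = 0.108 to 0.166), as did using no filter (0.112).

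The efflux transporters were low and higher in the libraries labelled knockdown, below what the test could take. ABCA1 (ENSG00000165029, GRCh38 chromosome 9, 104781002 to 104928237), which loads cholesterol onto apolipoprotein A-I, had 1.25 and 1.10 FPKM in the libraries labelled knockdown, against 0.491 and 0.722 FPKM in control. These values rest on 245 and 211 reads in the libraries labelled knockdown, against 98 and 161 in control. ABCG1, which exports cholesterol to HDL, had 1.04 and 0.780 FPKM in the libraries labelled knockdown, against 0.177 and 0.432 FPKM in control, from 110 and 81 reads against 19 and 52. For both, each library labelled knockdown was above each control, and the controls differed widely from each other. Their mean FPKM lay under the filter. Tested with no filter, ABCA1 had a log2 fold change of 0.44 (SE 0.14, limma adjusted p = 0.184) and ABCG1 0.55 (SE 0.16, limma adjusted p = 0.154), and neither passed.

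The LXR receptors lay a little higher. NR1H3 (ENSG00000025434, GRCh38 chromosome 11, 47248300 to 47269032), LXR alpha, had 7.12 and 7.00 FPKM in the libraries labelled knockdown, against 5.76 and 6.03 FPKM in control. NR1H2, LXR beta, had 20.2 and 18.4 FPKM in the libraries labelled knockdown, against 16.1 and 17.1 FPKM in control. The groups of both genes were apart. NR1H3 rose 1.17-fold (limma adjusted p = 0.0308), but the call was lost whichever library was left out (0.0806 to 0.131) and with no filter (0.0796). NR1H2, at 1.15-fold, did not pass (limma adjusted p = 0.0580) and passed with limma-voom on recovered reads (0.00765 and 0.0161) and with the filter at 5 FPKM (0.0285). The ratio of NR1H2 to NR1H3 was 2.83 and 2.63 in the libraries labelled knockdown, against 2.79 and 2.84 in control.

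**Figure D4:**
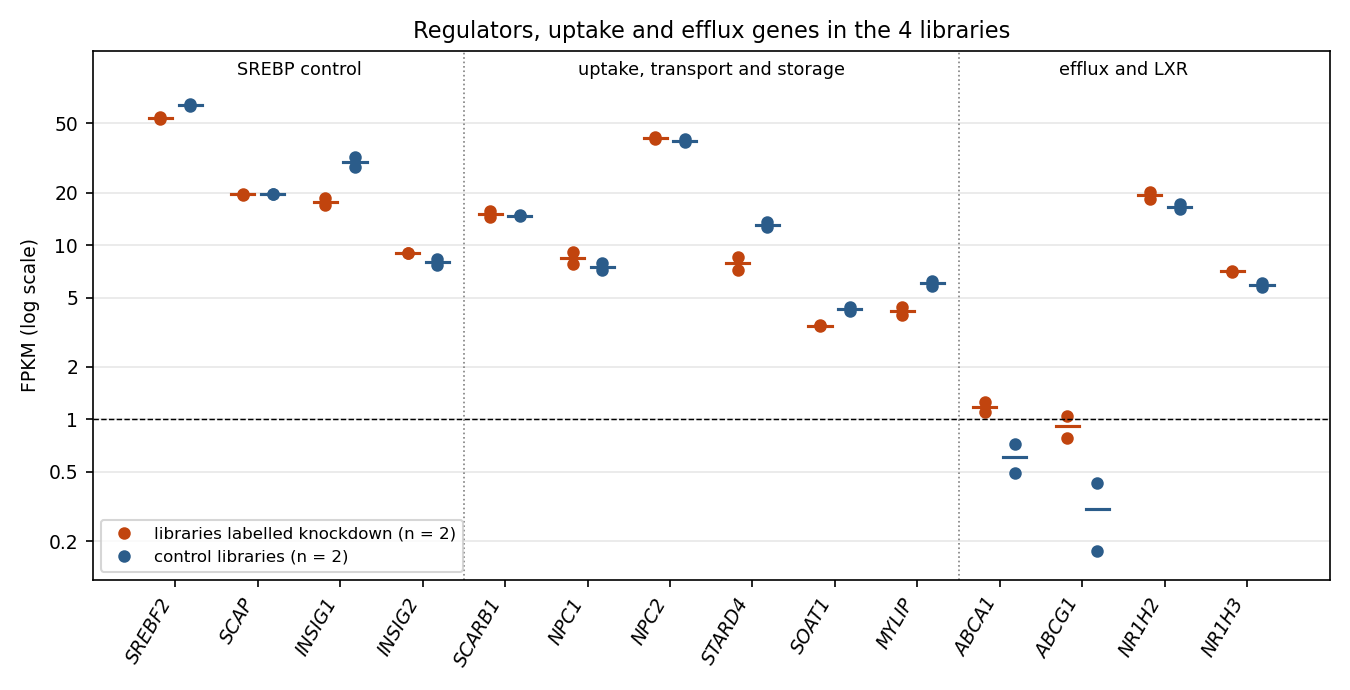
FPKM (y axis, log scale) of the 14 regulator, uptake and efflux genes, with 1 point per library and a bar at each group's mean, the libraries labelled knockdown left of control, and the dashed line at 1 FPKM, the filter on the mean. INSIG1 and STARD4 show the widest gaps downward among tested genes, and ABCA1 and ABCG1 sit around the filter with the controls lowest.

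Neighbouring genes did not move as these genes did. The median log2 fold change of the tested neighbours, up to 15 on each side, ran from -0.11 to 0.14 for the 21 called genes, and was beyond 0.1 in the same direction as the gene for 2 of them, IDI1 and LSS. Those values were -0.11 for each, beside -0.56 for IDI1 and -0.47 for LSS.

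Further genes of sterol metabolism did not share the fall as a whole. Of 52 such genes, listed by role, 39 were tested, and 8 fell while 7 rose, at a median log2 fold change of 0.04. Over all genes tested, 13.0% fell and 16.8% rose. The counts in the smaller lists below were not tested against these shares. Among SREBP processing and anchor genes 3 of 7 fell and none rose. SREBF1, the gene of SREBP-1, had 26.5 and 26.7 FPKM in the libraries labelled knockdown, against 36.5 and 41.6 FPKM in control, and fell to 0.691 (limma adjusted p = 0.00561). MBTPS2, a protease that cuts SREBP, fell to 0.846. MBTPS2 lost its call without any 1 of the 4 libraries (limma adjusted p up to 0.170 over the alternatives).

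Scaffolds and reductases of the sterol pathway gave 3 falls and 1 rise among 6 tested. ERG28, known in yeast as the scaffold of the C4 demethylation complex, had 19.4 and 21.0 FPKM in the libraries labelled knockdown, against 28.2 and 30.3 FPKM in control, a fall to 0.701 (limma adjusted p = 0.00442). It moved in the same direction as MSMO1, NSDHL and HSD17B7. TMEM97, the sigma-2 receptor, had 14.8 and 14.8 FPKM in the libraries labelled knockdown, against 19.3 and 23.0 FPKM in control, and fell to 0.716 (limma adjusted p = 0.0151), a call lost without either knockdown replicate (up to 0.0774 over the alternatives). LBR, the lamin B receptor with sterol C14 reductase activity, fell to 0.834. CYB5R3, the reductase that passes electrons to cytochrome b5, had 42.3 and 41.1 FPKM in the libraries labelled knockdown, against 32.1 and 33.7 FPKM in control, and rose 1.26-fold (limma adjusted p = 0.00518).

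Branches that leave the pathway changed in few genes. In the isoprenoid branches 7 of 9 genes did not pass. PDSS1, a subunit of the enzyme that makes the ubiquinone tail, fell to 0.757 (limma adjusted p = 0.0112), while DHDDS, which makes dolichol precursors, rose 1.21-fold (0.0347). Of the lipoprotein receptors, LRP8 fell to 0.770 (limma adjusted p = 0.0105), with 6.48 and 6.78 FPKM in the libraries labelled knockdown, against 8.56 and 9.26 FPKM in control. LRP1, a large receptor of many ligands, had 13.8 and 13.8 FPKM in the libraries labelled knockdown, against 10.3 and 10.5 FPKM in control, and rose 1.30-fold (0.00391). Among sterol transfer proteins OSBPL2 rose 1.39-fold (limma adjusted p = 0.00342) and OSBPL9 1.21-fold (0.0142). OSBPL2 lies on chromosome 20, as PPDPF does. LRP8 lost its call without control replicate 2 or knockdown replicate 1 (limma adjusted p up to 0.0529), and OSBPL9 without control replicate 2 or either knockdown replicate (up to 0.0711). PDSS1 lost its call without control replicate 2, and DHDDS without either control or knockdown replicate 1 (up to 0.0579 and 0.132 over the alternatives).

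The partners of LXR were higher. RXRA, the retinoid X receptor that pairs with LXR and other receptors, had 19.8 and 20.3 FPKM in the libraries labelled knockdown, against 14.6 and 14.2 FPKM in control. It rose 1.37-fold (limma adjusted p = 0.00244), and RXRB rose 1.21-fold (0.0196). The call of RXRB was lost without either control or knockdown replicate 1 (up to 0.0879 over the alternatives). Genes for oxysterol synthesis and intestinal sterol export gave little to read, since CH25H, CYP7B1, ABCG5 and PLTP were listed at 0 in every library and CYP27A1, ABCG8, ABCG4 and SOAT2 reached at most 0.0996 FPKM. Some colon epithelial markers differed between the groups too. Of the 11, 6 rose and 1 fell, beside 16.8% and 13.0% of all genes tested. With no filter on low values the calls of KRT8, KRT19, VIL1 and CDH1, the gene that fell, were lost. Those of VIL1 and CDH1 were also lost without any 1 of the 4 libraries, and that of KRT8 without control replicate 1 or either knockdown replicate. The sum of the 11, largely KRT8, KRT18 and KRT19, was 3223 and 3200.1 FPKM in the libraries labelled knockdown, against 2682 and 2874 FPKM in control. The part of this in the results above was not tested.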

How the data were processed

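RNA of 4 libraries, 2 labelled PPDPF knockdown and 2 labelled control, was measured by RNA-seq. The authors deposited FPKM per gene ID, unlogged, 1 file per library, as the file headers show. HISAT2 2.0.5 and hg18 are named in the submitters' processing notes, while the sources used here do not give the counting tool or its strand setting. All 58735 gene IDs matched GENCODE 29, whose GRCh38 coordinates are printed. Whole reads (within 0.01) were recovered from 100% of the FPKM values with the exon lengths. Library totals are given in the report, and genes with few reads, such as ABCG1, are the least precise.

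limma 3.58.1 in R 4.3.3 was run with a trend on log2(FPKM + 1) over the 12777 genes with a mean of at least 1 FPKM, with group as the only term and 2 residual degrees of freedom. Tests were two-sided with Benjamini-Hochberg adjustment over all genes tested and a threshold of 0.05. The fit was checked on simulated data. The members and lists were chosen with earlier results of these data known. All members are accounted for, with values per library for every called one. Of the other pathway genes, those called with a log2 fold change of at least 0.3 in size were to be named. MBTPS2, LBR, DHDDS, OSBPL9 and RXRB lie under it and were named after their values were seen, and 1 further gene is not reported here. Alternatives changed the scaling, the filter, the pseudocount, the threshold, the libraries, the block and the test (limma-voom on recovered reads). Promoters came from RefSeq. Figures were drawn with matplotlib 3.10.9.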

Additional observations from a re-analysis of the deposited data

How the results depend on the processing

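The 20 cholesterol genes that fell numbered 16 to 21 over the 13 other settings, and 16 of them were called in each of the 12 refits that tested them. Leaving out 1 library gave 17 to 19, and none of the 21 called genes changed direction. With no filter on low values 1134 of all genes rose and 734 fell, beside 2152 and 1662, and 0 cholesterol genes rose, 1 uptake, transport or storage gene fell, 0 efflux genes rose and 4 other pathway genes fell. With the threshold at 0.01, 927 of all genes rose and 589 fell, 0 cholesterol genes rose, 1 uptake, transport or storage gene fell, 0 efflux genes rose, and 4 other pathway genes rose while 3 fell. With a mean of at least 5 FPKM 2 cholesterol genes rose, both LXR receptors of the efflux step, and PPDPF was called at 0.164. With limma-voom and the authors' divisor 2 cholesterol genes rose, both LXR receptors of the efflux step, and PPDPF was called at 0.163. With limma-voom and total reads these were 2, 2 and 0.138, and 2709 of all genes fell. With 1 library left out, 1141 to 1345 of all genes rose and 775 to 919 fell. Of the cholesterol genes 0 to 1 rose, with 0 to 1 in the mevalonate arm (PMVK, without knockdown replicate 2) and 0 in the efflux step, and 1 to 2 uptake, transport or storage genes fell, beside 3. Of the other pathway genes 4 to 6 rose and 4 to 6 fell, and PPDPF ran from 0.0814 to 0.247. Uncalled genes near 0 changed sign. CYP51A1 ran from -0.176 to 0.0395 with 1 library left out, SCAP from -0.00937 to 0.0130 and SCARB1 from -0.0235 to 0.0825. SCAP was -0.0365 with quantile normalization, -0.0288 scaled to reads outside the mitochondrial genome and -0.0220 with limma-voom and total reads, and SCARB1 was -0.000570 scaled to reads outside the mitochondrial genome. With 10 neighbours on each side 1 called gene, and with 25 on each side 0, had neighbours beyond 0.1 in its direction, beside 2. With the shorter promoter window, CCAAT was found for 16 of the 17 matched genes that fell and 3 of the other 10, beside 34.9% of tested genes. The cause of these changes was not tested, beyond that no filter tests more genes and a left-out library leaves fewer.

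The labels give both groups the replicate numbers 1 and 2. The deviations of same-numbered libraries had a correlation of -0.0021 across genes, so no shared deviation was seen. This cannot tell whether same-numbered libraries shared a culture or a preparation. With the replicate block 1899 of all genes rose and 1405 fell, and 0 cholesterol genes rose, 0 of them in the efflux step, while 19 fell. Fewer than 300 reads lay behind MYLIP, HSD17B7, ABCA1, ABCG1 and CYP51A1 in some or all libraries, and these are the least precise.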

Other observations

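A pair of genes beside the cholesterol genes were also lower, and both were picked out after their values were seen. MMAB, which lies head to head with MVK and encodes an enzyme of vitamin B12 metabolism, had 2.69 and 2.91 FPKM in the libraries labelled knockdown, against 5.40 and 4.89 FPKM in control. Its groups were apart, and it fell to 0.618 of control (limma adjusted p = 0.00414), in 11 of the 11 alternatives that tested it. MMAB and MVK share 4.72% of the exon length of MVK, on opposite strands. STARD4-AS1, an antisense RNA at STARD4, had 4 and 2 reads in the libraries labelled knockdown, against 25 and 22 in control. It was under the filter, and with no filter it did not pass (limma adjusted p = 0.0809). The sources used here do not tell whether counting used strand, and its reads and those of STARD4 may not be separable.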
